A study of Mus musculus with 8 samples.

Results

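Peroxisomes are organelles bounded by a single membrane that shorten fatty acids which mitochondria handle poorly, among them very long-chain, branched and dicarboxylic acids and the side chains of bile acid precursors. Their oxidases pass electrons to oxygen and so make hydrogen peroxide, which catalase removes. Peroxisomal enzymes are made in the cytosol and imported in folded form by proteins of the Pex family, and in rodent liver drugs that activate the nuclear receptor PPAR alpha raise many of these genes and the number of peroxisomes.

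The genes described here are 38 genes of peroxisome biogenesis and peroxisomal oxidation, taken by gene symbol from a list of names. The list was chosen with earlier results of these data known, so the shares given for it are descriptive only. All 38 were found among the 22481 genes of the deposited values, 12 of them Pex genes and 26 enzymes, transporters and other membrane proteins. They were measured by RNA sequencing of liver in 8 samples of male mice, 4 labelled db/db and 4 lean samples whose strain label is C57BL/6, in a study of fatty liver disease and the deubiquitylating enzyme RPN11. The db/db mouse lacks a working long form of the leptin receptor in every tissue and is obese and diabetic. The labels give no age, no background strain for the db/db mice and no animal for each sample, so a p-value here rests on sample-to-sample spread, part of which may be technical. Levels are in FPKM, a measure that divides fragments by transcript length and library size, which allows levels of different genes to be compared, and a value after ± is the SD over the 4 samples of a group. Estimated fragments in protein-coding genes numbered 12174816 to 16171656 a sample.

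Of the 38 genes, 37 reached 0.5 FPKM in at least 4 of the 8 samples and were tested within a fit over 10943 genes, with limma on log2(FPKM + 1) and a Benjamini-Hochberg adjusted p below 0.05 as the call. Higher in db/db were 21 of the 37 (56.8%) and lower 2 (5.41%), against 15.5% higher and 10.9% lower among all genes tested. The median log2 fold change, always db/db minus lean, was 0.39 over the 37 genes and 0.04 over all genes. In all 23 called genes the FPKM of the groups did not overlap, which held in the upward direction for 16.9% and in the downward direction for 11.6% of all genes. For each of these 23 genes an exact 2-sided permutation test of FPKM over samples gave an unadjusted p = 0.0286, the smallest that 4 against 4 samples allow. Groups that do not overlap always give this value, so it adds no support beyond the lack of overlap. At least 1.5-fold higher and called were 14 of the 37, against 11.7% of all genes, and as much lower and called was 1, against 7.84%. The remaining member, Dao, which encodes D-amino acid oxidase, was listed at 0 in all 8 samples and was not tested.

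One library stood apart. The second principal component of log2 values placed db/db 1 at 29.6 and the other db/db samples between -15.0 and -4.59. Among the 23 called members, db/db 1 was the db/db sample nearest to the lean mean in 12 (52.2%), against 31.4% of all 2892 called genes. It was the farthest from the lean mean in 5 of the 23, against 3, 6 and 9 for db/db 2 to 4. Without db/db 1, 19 members were called higher and 2 lower.

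**Figure D1:**
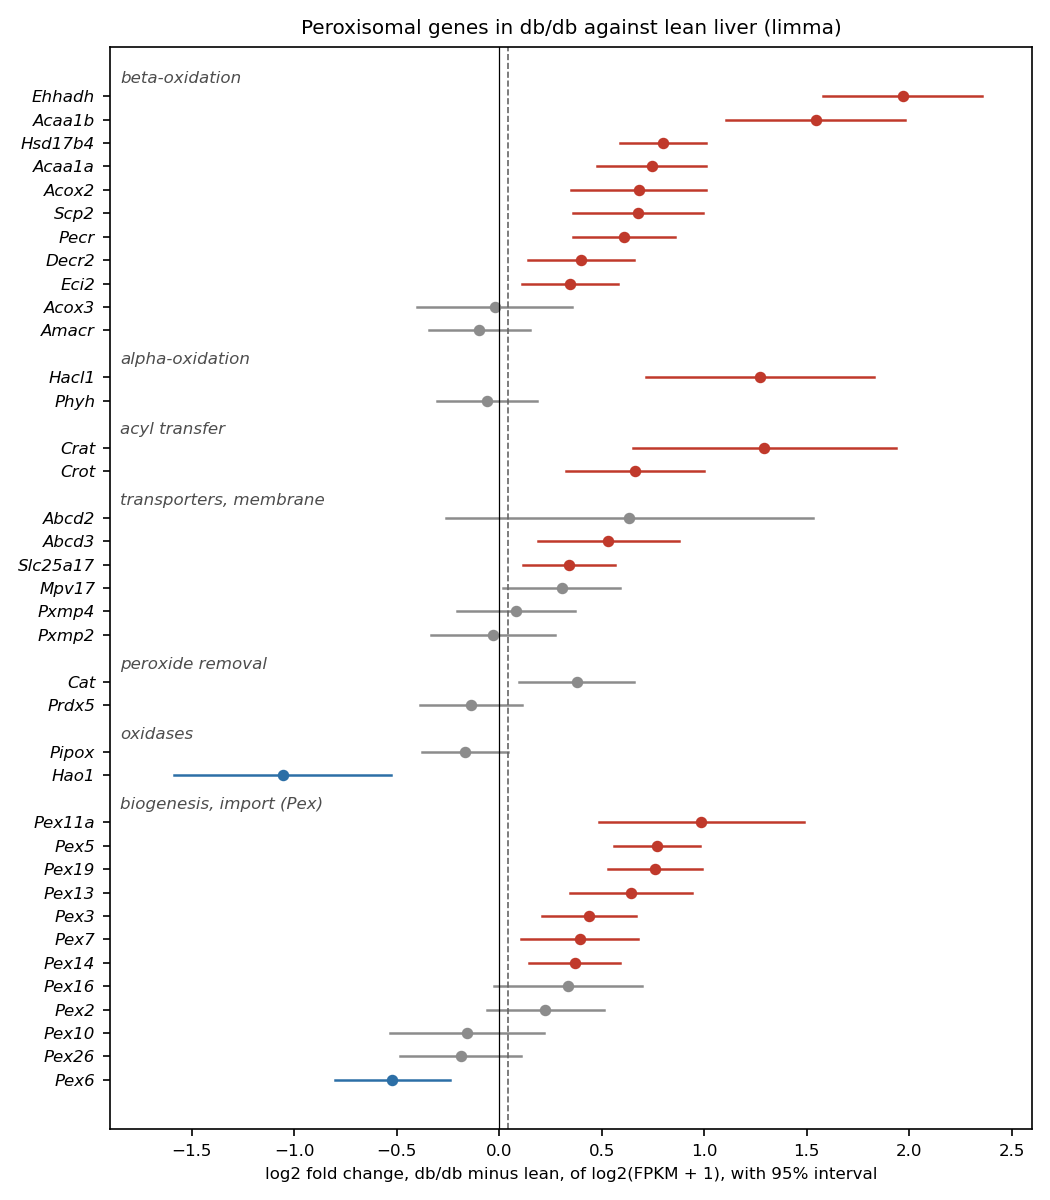
Log2 fold change (db/db minus lean, on log2(FPKM + 1), x axis) of the 37 tested genes by role, with bars for the 95% interval of the limma fit from 4 samples a group. Red marks genes called higher, blue those called lower and grey those not called, and the dashed line is the median of all genes tested at 0.04. Ehhadh has the highest value, 1.97, and Hao1 the lowest, -1.06.

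The enzymes of beta-oxidation held the largest rises, those of Ehhadh and Acaa1b. Of 11 tested, 9 rose and 0 fell, with a median log2 fold change of 0.68. Acyl-CoA oxidases open the cycle. Acox2, the oxidase for branched acyl groups and bile acid intermediates, measured 152, 108, 109 and 96.8 FPKM across db/db 1 to 4, with 60.6, 75.3, 69.8 and 81.0 across lean 1 to 4. All db/db samples lay above all lean ones, with db/db 1 the highest (limma log2 fold change 0.68 with SE 0.15, adjusted p = 0.00703). Acox3, another oxidase of branched acyl-CoAs, was low, averaging 6.44 ± 1.62 FPKM in the db/db group against a lean average of 6.49 ± 1.09 (each with its SD over 4 samples), and was not called (log2 fold change -0.02, 95% interval -0.40 to 0.36, limma adjusted p = 0.942).

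The hydratase and dehydrogenase steps are carried out by bifunctional enzymes. Ehhadh, the L-specific form, which is needed for dicarboxylic acids, measured 196, 262, 296 and 299 FPKM across db/db 1 to 4, with 74.9, 73.1, 48.0 and 70.5 across lean 1 to 4. The lowest db/db value, that of db/db 1, was still more than the highest lean value, and the mean was 3.95-fold higher (limma log2 fold change 1.97 with SE 0.17, adjusted p = 2.72e-05). Hsd17b4, the D-specific form that serves branched substrates and bile acid precursors, measured 208, 232, 231 and 238 FPKM across db/db 1 to 4, with 138, 131, 119 and 133 across lean 1 to 4. The spread within each group was small for this gene and the groups were far apart (limma log2 fold change 0.80 with SE 0.09, adjusted p = 0.000186). In the lean samples Hsd17b4 had a higher level than Ehhadh, at 130.2 ± 8.27 against 66.6 ± 12.6 FPKM, while in db/db the levels were 227 ± 13.2 and 263 ± 47.7 FPKM.

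Thiolases close the cycle by releasing acetyl-CoA. Acaa1b measured 728, 1269, 1391 and 1153 FPKM across db/db 1 to 4, with 443, 406, 364 and 311 across lean 1 to 4. Its mean was 2.98-fold higher in db/db, with db/db 1 between the lean samples and the other db/db samples (limma log2 fold change 1.54 with SE 0.20, adjusted p = 0.000313). The neighbouring paralog Acaa1a measured 132, 165, 178 and 163 FPKM across db/db 1 to 4, with 93.7, 95.8, 106 and 82.6 across lean 1 to 4. It rose 1.69-fold, again with db/db 1 the lowest of its group (limma log2 fold change 0.74 with SE 0.12, adjusted p = 0.00134). Each shares its locus in the deposited values with other genes (Acaa1a with 5 rows and Acaa1b with 1). Whether reads were shared between these paralogs was not tested, and the split between them is uncertain.

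Scp2 encodes sterol carrier protein 2 and, in a longer transcript, the thiolase for branched side chains. It measured 3268, 2628, 2503 and 2944 FPKM across db/db 1 to 4, with 1806, 1761, 1445 and 2098 across lean 1 to 4. With the highest db/db mean of all 38 genes, Scp2 rose in FPKM without overlap of the groups (limma log2 fold change 0.68 with SE 0.14, adjusted p = 0.00608). Estimated fragments of Scp2, scaled to the library total as CPM, were 5881, 5071, 4859 and 4270.1 across db/db 1 to 4, with 3850.2, 4198, 2516 and 3994 across lean 1 to 4, a 1.38-fold difference of means. On those fragments the call was lost (voom log2 fold change 0.39, adjusted p = 0.0976). The Scp2 locus is shared with Podn in the deposited values.

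Auxiliary enzymes deal with double bonds and side-chain configuration. Pecr, the peroxisomal trans-2-enoyl-CoA reductase, measured 254, 204, 213 and 261 FPKM across db/db 1 to 4, with 156, 139, 165 and 149 across lean 1 to 4. Every db/db sample exceeded every lean one (limma log2 fold change 0.61 with SE 0.11, adjusted p = 0.00286). Decr2, a 2,4-dienoyl-CoA reductase, rose 1.32-fold (limma adjusted p = 0.0283) and Eci2, an enoyl-CoA isomerase, 1.27-fold (limma adjusted p = 0.0339). Both calls were lost on leaving out single samples, 5 different ones for Decr2 and 6 for Eci2, with adjusted p up to 0.0792 and 0.0918. Amacr, the racemase that prepares branched acyl-CoAs for the oxidases, averaged 48.4 ± 3.16 FPKM in the db/db group against a lean average of 52.1 ± 6.37 and was not called (log2 fold change -0.10, 95% interval -0.34 to 0.15, limma adjusted p = 0.556).

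**Figure D2:**
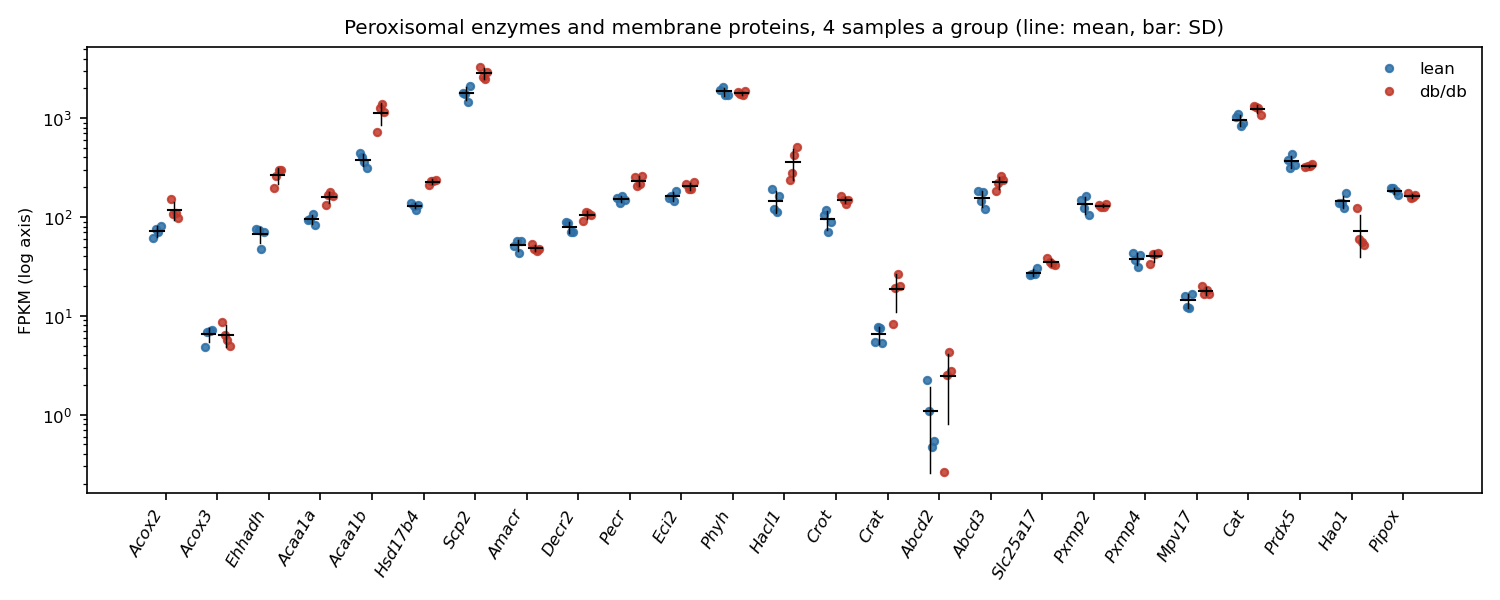
FPKM (log axis) of 25 peroxisomal enzymes, transporters and membrane proteins in each of 4 lean (blue) and 4 db/db (red) samples, with the mean as a line and the SD as a bar. The groups are separate for genes such as Ehhadh (48.0 to 74.9 in lean and 196 to 299 in db/db) and overlap for Phyh (1715 to 2055 and 1699 to 1860).

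Promoter sequences were taken from RefSeq on build GRCm38.p6 for the genes with the largest rises among members with an entry (Ehhadh, Acaa1b), for the Acaa1b paralog, for the Pex gene with the largest rise (Pex11a) and for the enzyme that fell (Hao1). Each runs 5′ to 3′ on the strand of the gene, from 250 bases before the annotated start to 50 bases after it, and capitals mark the letters CCAAT or GGGCGG on either strand.
Ehhadh (chr16:21787785-21788084, minus strand): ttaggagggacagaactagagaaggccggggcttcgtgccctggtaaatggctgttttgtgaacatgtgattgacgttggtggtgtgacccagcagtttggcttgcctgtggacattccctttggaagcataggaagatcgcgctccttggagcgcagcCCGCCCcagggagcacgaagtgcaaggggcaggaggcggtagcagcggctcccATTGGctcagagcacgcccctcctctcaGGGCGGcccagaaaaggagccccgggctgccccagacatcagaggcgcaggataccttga
Acaa1b (chr9:119157044-119157343, minus strand): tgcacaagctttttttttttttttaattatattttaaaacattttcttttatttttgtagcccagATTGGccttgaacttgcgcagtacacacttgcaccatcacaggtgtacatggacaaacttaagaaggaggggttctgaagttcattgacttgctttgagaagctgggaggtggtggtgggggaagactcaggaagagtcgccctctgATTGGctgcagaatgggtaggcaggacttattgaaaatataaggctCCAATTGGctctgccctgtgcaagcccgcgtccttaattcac
Acaa1a (chr9:119341044-119341343, plus strand): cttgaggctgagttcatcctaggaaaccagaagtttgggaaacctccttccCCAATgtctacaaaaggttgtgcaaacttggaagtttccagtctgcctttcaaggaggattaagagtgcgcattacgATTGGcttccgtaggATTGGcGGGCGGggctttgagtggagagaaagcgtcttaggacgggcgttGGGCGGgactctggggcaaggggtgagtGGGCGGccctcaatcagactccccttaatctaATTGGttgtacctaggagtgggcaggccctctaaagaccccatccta
Pex11a (chr7:79743082-79743381, minus strand): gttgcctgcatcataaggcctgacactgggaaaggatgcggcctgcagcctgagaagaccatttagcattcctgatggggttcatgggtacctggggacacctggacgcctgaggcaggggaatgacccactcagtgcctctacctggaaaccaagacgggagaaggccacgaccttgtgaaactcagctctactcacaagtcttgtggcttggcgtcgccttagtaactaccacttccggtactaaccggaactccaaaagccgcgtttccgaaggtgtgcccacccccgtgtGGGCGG
Hao1 (chr2:134554303-134554602, minus strand): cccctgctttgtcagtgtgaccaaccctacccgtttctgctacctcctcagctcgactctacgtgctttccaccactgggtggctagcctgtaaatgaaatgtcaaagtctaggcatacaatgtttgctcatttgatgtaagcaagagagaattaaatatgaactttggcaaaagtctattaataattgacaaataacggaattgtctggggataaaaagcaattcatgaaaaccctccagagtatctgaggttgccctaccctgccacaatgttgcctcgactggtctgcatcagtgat

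Entries existed for 31 of the 38 genes, 18 of them called higher. The PPAR response element core, AGGTCA repeated in the same direction after 1 spacer base, was found in 0 of the 31 genes on either strand, and in 13 of 27025 genes with a promoter (0.0481%). A looser form with any base at the fourth place of each AGGTCA, which includes the former and was added after the first search, was in 0 of the 31 and in 0.451% of all. Both forms are so rare in this window that 0 among 31 genes was likely for any genes. No conclusion about PPAR response elements is drawn from it. A single AGGTCA was in 4 of the 31 genes (12.9%) against 18.1% of all and 15.6% of the 8230 tested genes with an entry. CCAAT, added later as well, was in 15 of the 31 (48.4%) against 41.1% of all and 43.2% of the 8230 tested genes with an entry. CCAAT was in 11 of the 18 genes called higher and in 3 of the 10 not called. GGGCGG, also added later, was in 22 of the 31 (71.0%) against 38.2% of all and 68.0% of those tested genes. It was in 14 of the 18 genes called higher and in 6 of the 10 not called. For a single AGGTCA these counts were 1 of 18 and 2 of 10. No difference between called and uncalled genes was tested for any motif. None of these 3 short motifs contains another. The promoters of Acaa1a and Acaa1b each held 4 matches to CCAAT over both strands. In Acaa1b the stretch CCAATTGG holds a match on each strand, and these overlap, while those of Acaa1a are separate. Of the 262 aligned bases of these promoters 167 were identical (63.7%). GGGCGG occurred at 3 places in the Acaa1a promoter and at 0 in that of Acaa1b. These matches describe letters in a short window and not bound sites.

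Alpha-oxidation removes a single carbon from fatty acids whose methyl branch blocks beta-oxidation. Of its 2 enzymes in the list, 1 rose and 1 was not called. Phyh, the hydroxylase of phytanoyl-CoA, measured 1823, 1737, 1699 and 1860.1 FPKM across db/db 1 to 4, with 1941, 2055, 1715 and 1726 across lean 1 to 4. It had the highest lean mean of the 38 genes, the groups overlapped and there was no call (log2 fold change -0.06, 95% interval -0.30 to 0.18, limma adjusted p = 0.725). Hacl1, the lyase of the following step, measured 237, 278, 422 and 516 FPKM across db/db 1 to 4, with 191, 120.1, 111 and 162 across lean 1 to 4. It was 2.49-fold higher in db/db with a wide spread among the db/db samples (limma log2 fold change 1.27 with SE 0.25, adjusted p = 0.00421). Its locus is shared with Btd and Colq in the deposited values. On estimated fragments the difference was 3.22-fold in mean CPM (voom log2 fold change 1.59, adjusted p = 0.000191).

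Chain-shortened acyl groups leave the peroxisome as carnitine esters. Crot, which transfers medium-chain groups, measured 164, 149.8, 135 and 148 FPKM across db/db 1 to 4, with 104, 118, 69.9 and 88.8 across lean 1 to 4, with no overlap (limma log2 fold change 0.66 with SE 0.15, adjusted p = 0.00915). Crat, which transfers acetyl groups in peroxisomes and mitochondria, measured 8.18, 19.2, 26.8 and 20.3 FPKM across db/db 1 to 4, with 5.45, 7.69, 7.57 and 5.32 across lean 1 to 4. It rose 2.86-fold although db/db 1 lay close to the lean samples (limma log2 fold change 1.29 with SE 0.29, adjusted p = 0.00821). The Crat locus is shared with Dolpp1.

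Of 6 transporters and other membrane proteins, 2 rose and 0 fell. Abcd3, the most abundant ABC transporter of the liver peroxisome, measured 183, 219, 258 and 238 FPKM across db/db 1 to 4, with 182, 144, 178 and 120.0 across lean 1 to 4. The gap between the groups was narrow, with db/db 1 just above lean 1 (limma log2 fold change 0.53 with SE 0.16, adjusted p = 0.0281), and leaving out any of 5 single samples ended the call (adjusted p up to 0.0738). Estimated fragments separated the groups more widely, by 1.87-fold in mean CPM (voom log2 fold change 0.82, adjusted p = 0.000667). Slc25a17, a carrier of cofactors such as CoA, rose 1.28-fold, from a lean average of 27.4 ± 2.11 FPKM to 34.9 ± 2.81 in db/db (limma adjusted p = 0.0295). Of the single-sample omissions, 6 ended this call (adjusted p up to 0.0816).

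Abcd2, a transporter related to Abcd3, was low and variable, with 0.264, 2.52, 4.33 and 2.79 FPKM across db/db 1 to 4, with 2.27, 1.09, 0.470 and 0.537 across lean 1 to 4. The value of db/db 1 was below every lean sample while those of the other db/db samples were above every lean sample, and the gene was not called (limma adjusted p = 0.276). Without db/db 1 it was (adjusted p = 0.0191). Pxmp2, a channel-forming membrane protein, Pxmp4, and Mpv17, a Pxmp2 relative of the mitochondrial inner membrane, were not called, with log2 fold changes of -0.03, 0.08 and 0.30 and 95% intervals of -0.33 to 0.27, -0.21 to 0.37 and 0.02 to 0.59.

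Catalase, encoded by Cat, measured 1313, 1303, 1280.3 and 1069 FPKM across db/db 1 to 4, with 1019.9, 1100.1, 823 and 888 across lean 1 to 4. Only db/db 4 fell within the lean range, and the difference missed the threshold (log2 fold change 0.38, 95% interval 0.10 to 0.66, limma adjusted p = 0.0502). Cat was called higher under 4 of 17 other settings. Prdx5, a peroxiredoxin found in peroxisomes, mitochondria and the cytosol, averaged 329.8 ± 8.95 FPKM in the db/db group against a lean average of 365 ± 50.2 (SD, n = 4 each; log2 fold change -0.14, 95% interval -0.38 to 0.11, limma adjusted p = 0.404). Hence 0 of these 2 peroxide-removing genes were called.

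Among the oxidases of other substrates, 1 of 2 tested fell and 0 rose. Hao1, the liver oxidase that turns glycolate into glyoxylate, measured 122, 60.1, 56.5 and 51.7 FPKM across db/db 1 to 4, with 139, 138, 124 and 174 across lean 1 to 4. The db/db samples were all lower, but db/db 1 only by a little, and the lean mean was 1.98-fold that of db/db (limma log2 fold change -1.06 with SE 0.24, adjusted p = 0.00853). Pipox, which oxidises pipecolate and sarcosine, measured 173, 155, 160.4 and 167 FPKM across db/db 1 to 4, with 195, 195, 182 and 166 across lean 1 to 4, with overlap and without a call (log2 fold change -0.17, 95% interval -0.38 to 0.04, limma adjusted p = 0.220).

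Most Pex genes were called higher. Of 12 Pex genes tested, 7 were higher (58.3%) and 1 lower, against 14 higher (56.0%) and 1 lower of the 25 other members. The median log2 fold changes were 0.38 and 0.40. The difference between these groups of genes was not tested. At least 1.5-fold higher and called were 4 of 12 Pex genes and 10 of 25 others. The highest fold of means was 2.10 among Pex genes, for Pex11a, and 3.95 among the others, for Ehhadh.

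Receptors and docking proteins of the import machinery were all higher. Pex5, the receptor for the C-terminal targeting signal that most peroxisomal enzymes carry, measured 32.6, 38.9, 36.0 and 37.96 FPKM across db/db 1 to 4, with 21.8, 20.4, 20.5 and 20.7 across lean 1 to 4. Its lean values lay within a narrow band far below those of db/db (limma log2 fold change 0.77 with SE 0.09, adjusted p = 0.000245). Pex13, a docking protein of the membrane, measured 22.4, 24.2, 16.4 and 24.4 FPKM across db/db 1 to 4, with 13.9, 12.7, 12.7 and 14.6 across lean 1 to 4. Here db/db 3 was the lowest of its group and still above the lean samples (limma log2 fold change 0.64 with SE 0.13, adjusted p = 0.00552). The Pex13 locus is shared with Pus10 in the deposited values. Pex7, the receptor for an N-terminal signal, and Pex14, the docking partner of Pex13, rose 1.31-fold and 1.30-fold (limma adjusted p = 0.0452 and 0.0211). The Pex7 call was lost without any single sample other than lean 1 (adjusted p up to 0.107), and that of Pex14 without db/db 3 or lean 1 (adjusted p up to 0.0568).

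None of the 4 genes for returning the receptor to the cytosol was called higher. Pex2 and Pex10, ring-finger proteins that tag Pex5 with ubiquitin, had 95% intervals of -0.06 to 0.51 and -0.53 to 0.22 around log2 fold changes of 0.23 and -0.16, with limma adjusted p of 0.223 and 0.528. Pex6, an ATPase that pulls the tagged receptor out of the membrane, fell from 20.5 ± 3.38 to 13.9 ± 1.25 FPKM, with db/db samples at 12.3 to 15.2 and lean samples at 17.8 to 25.4 (limma log2 fold change -0.52 with SE 0.13, adjusted p = 0.0126). Its row spans chromosome 17, 45606434 to 46831413, and shares that merged locus with 38 other rows, so the value is uncertain. Pex26, the membrane anchor of Pex6, was not called (log2 fold change -0.19, 95% interval -0.48 to 0.11, limma adjusted p = 0.328). Thus 4 of 4 receptor and docking genes and 0 of 4 receptor-recycling genes were called higher, a division of the list made after the values were seen, for which no difference was tested.

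Proteins that insert others into the peroxisomal membrane are encoded by Pex3, Pex16 and Pex19. Pex19, the cytosolic chaperone of membrane proteins, measured 73.4, 71.3, 64.6 and 67.6 FPKM across db/db 1 to 4, with 35.8, 41.7, 38.7 and 46.0 across lean 1 to 4. All db/db values exceeded all lean ones by a wide margin (limma log2 fold change 0.76 with SE 0.10, adjusted p = 0.000467). Pex3, the membrane docking site of Pex19, rose 1.39-fold, from a lean average of 10.1 ± 0.866 FPKM to 14.1 ± 0.806 in db/db (limma adjusted p = 0.0101). The Pex3 locus is shared with Adat2. Pex16 overlapped between the groups, with db/db samples at 44.2 to 79.1 FPKM and lean samples at 42.4 to 51.0, and was not called (log2 fold change 0.33, 95% interval -0.03 to 0.70, limma adjusted p = 0.159). Without db/db 2 it was called higher (adjusted p = 0.0271).

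Pex11a, which elongates peroxisomes before they divide and is raised by PPAR alpha activators in rodents, measured 54.6, 109, 132 and 96.4 FPKM across db/db 1 to 4, with 46.0, 53.6, 45.0 and 42.5 across lean 1 to 4. The value of db/db 1 was close to lean 2, while the other db/db samples were far above (limma log2 fold change 0.99 with SE 0.23, adjusted p = 0.00903). Without db/db 1 the limma adjusted p was the lowest among the omissions of single samples, 0.000115.

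**Figure D3:**
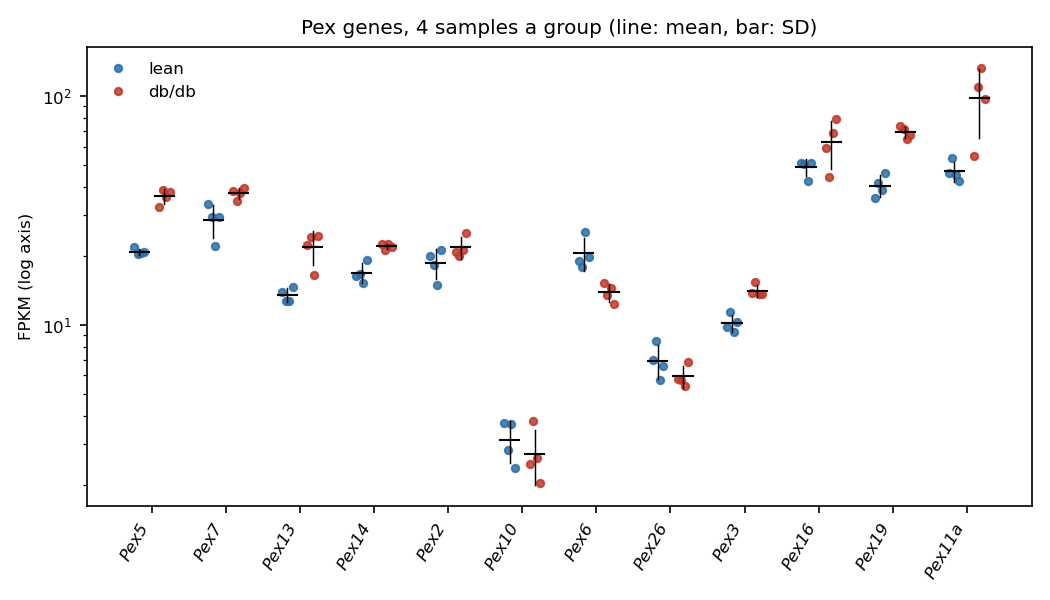
FPKM (log axis) of the 12 Pex genes in 4 lean (blue) and 4 db/db (red) samples, with the mean as a line and the SD as a bar, ordered as receptors and docking, receptor recycling, membrane insertion and Pex11a. Pex5 is separate between the groups (20.4 to 21.8 in lean and 32.6 to 38.9 in db/db), and Pex10 overlaps (2.37 to 3.72 and 2.04 to 3.79).

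Averaged over genes, each db/db sample was above the lean mean for Pex genes and for the others. The mean log2 difference from the lean mean over 12 Pex genes was 0.27, 0.35, 0.34 and 0.39 across db/db 1 to 4, against -0.09 to 0.03 in lean samples. Over the 25 enzymes and transporters it was 0.38, 0.45, 0.53 and 0.50, against -0.10 to 0.09. For both sets of genes db/db 1 was the lowest of the db/db samples. The median over all genes tested lay between -0.01 and 0.07 in every sample.

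**Figure D4:**
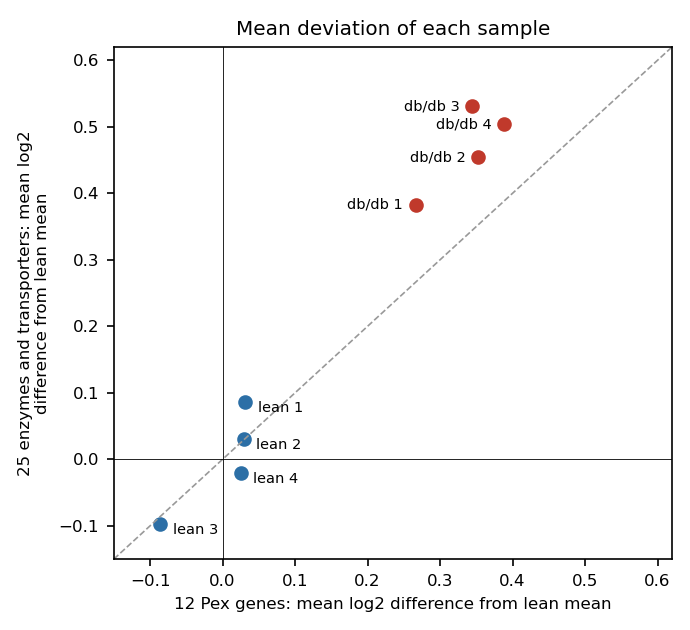
Mean log2 difference from the lean mean over 12 Pex genes (x axis) and over 25 enzymes and transporters (y axis), 1 point a sample, on log2(FPKM + 1), with the dashed line where both are equal. The 4 db/db samples (red) lie at 0.27 to 0.39 and 0.38 to 0.53, apart from the 4 lean samples (blue), and above the line.

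Levels of the members ranged widely. In lean liver the order of the means began with Phyh, Scp2 and Cat, at 1859 ± 167, 1778 ± 267 and 958 ± 125 FPKM, and the means of Phyh and Scp2 lay within 1 SD of each other. In db/db liver Scp2 came before Phyh, at 2836 ± 343 and 1779.8 ± 74.7 FPKM, followed by Cat and Acaa1b at 1241 ± 116 and 1135 ± 288 FPKM, the last of which also lay within 1 SD of each other. Hacl1 went from rank 10 in lean to rank 5 in db/db and Hao1 from rank 11 to rank 19. Summed over the 38 genes, FPKM came to 10101 to 10605 across db/db and to 6711 to 7741 across lean samples. Scp2 supplied 24.3 to 31.9% of the sum in db/db and 21.5 to 28.4% in lean. Without Scp2 the sums were 6966 to 7794 and 5265 to 5935.

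Estimated fragments were the other measure. With voom 18 members were called higher and 2 lower, against 15.4% and 13.5% of all genes, and all 18 were among the 21 called with FPKM. The 3 not called with voom were Scp2, Decr2 and Eci2 (adjusted p = 0.0976, 0.0533 and 0.0925). FPKM also depends on how fragments are assigned to transcripts of different length, and the log2 fold changes of the measures were farthest apart for Hacl1, Abcd3, Scp2 and Pex10 (-0.16 with limma and -0.40 with voom for Pex10).

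**Figure D5:**
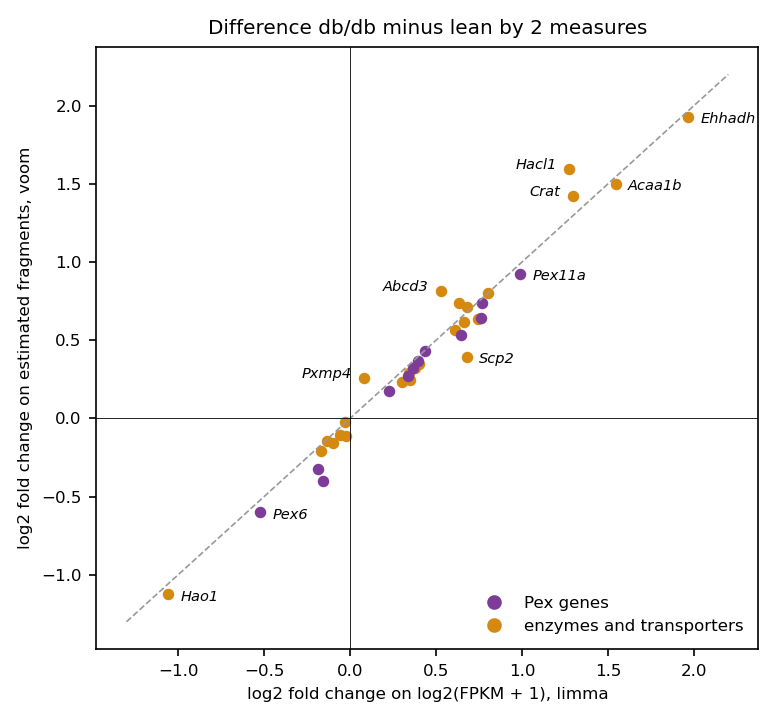
Log2 fold change (db/db minus lean) of the 37 tested genes on log2(FPKM + 1) with limma (x axis) and on estimated fragments with voom (y axis), with the dashed line where both are equal. Points of Pex genes are purple and those of other members orange, and Scp2 lies below the line (0.68 and 0.39) while Abcd3 (0.53 and 0.82) and Hacl1 (1.27 and 1.59) lie above it.

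Further genes of peroxisomal proteins were read in the same fit. Of 36 listed, 35 were tested, with a median log2 fold change of 0.28. Called higher were 13 (37.1%) and lower 2 (5.71%), against 15.5% and 10.9% of all genes tested. With voom 10 of these 13 were also called higher. Of the 13, Acot6 entered the test through the db/db samples alone, with 1.35 to 1.65 FPKM there and 0.0760 to 0.388 in the lean samples, so its difference is no support for the count. Acot3 and Acot4, thioesterases that release free acids from acyl-CoA in the peroxisome and belong to a cluster of close paralogs, rose from 6.14 ± 5.07 to 65.1 ± 26.3 FPKM and from 6.88 ± 2.10 to 38.2 ± 12.2 FPKM (limma adjusted p = 0.000464 and 8.56e-05). Gstk1, a glutathione transferase of peroxisomes and mitochondria, rose 2.19-fold (limma adjusted p = 2.72e-05). Uox, urate oxidase, had the highest mean of the list and rose 1.65-fold in FPKM (limma adjusted p = 0.0220), but not on estimated fragments (voom adjusted p = 0.201). The genes that fell were Nudt7, a CoA diphosphatase, from 864 ± 103 to 307 ± 143 FPKM, and Agxt, the aminotransferase that converts the glyoxylate made by Hao1, from 148 ± 25.2 to 83.2 ± 9.28 FPKM (limma adjusted p = 0.00121 and 0.00194). Agxt was named after its values were seen.

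Of 12 genes for PPAR alpha and its partners, 1 rose (8.33%) and 0 fell, against 15.5% higher and 10.9% lower among all genes tested. Ppargc1a, a coactivator, rose from 0.458 ± 0.312 to 1.99 ± 0.486 FPKM (limma adjusted p = 0.00232). With its lean mean below the filter of 0.5 FPKM, Ppargc1a entered the test through the db/db samples. Its difference is therefore no support for the count. Creb3l3, a liver transcription factor with the highest mean of this list, averaged 101 ± 7.19 FPKM in db/db against a lean average of 117 ± 7.22 and was not called (limma adjusted p = 0.125). Ppara itself measured 14.9, 8.47, 7.07 and 8.48 FPKM across db/db 1 to 4, with 7.69, 9.17, 9.20 and 10.5 across lean 1 to 4. It was not called in FPKM (log2 fold change 0.04, limma adjusted p = 0.908) and was called higher on estimated fragments (voom log2 fold change 0.90, adjusted p = 0.0111).

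Known PPAR alpha targets outside the peroxisome were called higher in 13 of 17 tested (76.5%) and lower in 0. Among all genes tested these shares were 15.5% and 10.9%. Those with the largest differences were Cyp4a14, Cd36, Cyp4a10 and Acot2, with log2 fold changes of 4.68, 4.25, 3.40 and 2.30 (limma adjusted p at most 0.00143). Of these, Cyp4a14 and Cyp4a10 are omega-hydroxylases whose dicarboxylic products are peroxisomal substrates, and for both db/db 1 had the lowest value of its group, at 580 and 738 FPKM against 886 to 1026 and 943 to 1315. Fabp1, the fatty acid binding protein with the highest mean of the list, was not called (limma adjusted p = 0.133).

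Markers of cell types were read in the same samples, since in bulk liver fewer cells of a type and less RNA per cell cannot be told apart. Hepatocyte markers were present in every sample, with a summed level of 33742 to 45776 FPKM in db/db and 55277 to 65586 in lean. Of the 8, 3 fell and 5 were not called, with log2 fold changes from -3.97 to 0.16 and a median of -0.28. A sum is weighted towards the most abundant markers. Among all genes tested 15.5% were higher and 10.9% lower. For Kupffer cells 7 of 8 markers were tested, 2 fell, and the sums were 75.4 to 102 and 93.8 to 158 FPKM. Stellate cell markers (7 of 8 tested, 1 higher and 1 lower) summed to 103 to 133 and 97.1 to 116 FPKM, and endothelial markers (7 of 7 tested, 1 lower) to 51.9 to 58.5 and 63.5 to 76.0 FPKM. Cholangiocyte and lymphocyte markers summed to at most 4.18 and 6.90 FPKM in any sample, with 0 calls among 2 tested of each. Of 4 adipocyte markers Fabp4 rose 2.15-fold, while Lep was listed at 0 in all samples and Plin1 in all db/db samples. The part of these differences in the peroxisomal results was not tested.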

How the data were processed

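Liver RNA of 4 db/db and 4 lean samples was analysed, grouped by title. Per the labels' protocols, stranded libraries were made from rRNA-depleted total RNA. The build mm10 and the tools HISAT2 2.0.4, cutadapt 1.9.3, Cuffdiff and Cufflinks are named in the submitters' processing notes without their roles. The deposited FPKM values, per the file headers, were used for the main test. The deposited columns headed counts held a normalized signal that appears to be estimated fragments divided by a size factor, which no source used here states: each library had 1 smallest step, and 91.4 to 92.0% of its values below 2000 steps came out whole (tolerance 0.05) in that step. Depth and voom rest on these values in steps, called estimated fragments, and depend on that reading of the columns.

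Of 22564 rows, 162 shared a symbol with another and were summed. Genes with FPKM of at least 0.5 in at least 4 samples entered limma 3.58.1 in R 4.3.3 (lmFit, eBayes with a mean trend, pseudocount 1, 2-sided). Folds are ratios of mean FPKM, and fold changes on log2(FPKM + 1) understate changes of low genes. Of the 38 members, 12 shared a locus with another row. They were Acaa1a, Acaa1b, Scp2, Hacl1, Crat, Pxmp2, Mpv17, Prdx5, Pex3, Pex6, Pex13 and Pex16. Of these 12, 7 were called higher, and of the 25 tested members with a locus of their own 14 were. The fits were tested on simulated data.

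The members and lists were chosen with earlier results of these data known. Given sample by sample were called members at least 1.5-fold different and, for each role, the member with the highest mean and the called member with the smallest adjusted p, and Abcd2 and Ppara after their values were seen. From each other list the rule named up to 4 called genes with the largest change and the gene with the highest mean. The split of Pex genes by step of import came after their values were seen. Protein sequences were not used here, so targeting signals planned for a search were not searched. Promoters came from RefSeq (GRCm38.p6), matched by symbol. The alternatives were other pseudocounts, filters, scalings, voom, no trend, a replicate block and leaving out each sample.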

Additional observations from a re-analysis of the deposited data

Results flagged for a closer look

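In each group of 4 samples, a gene was listed here when its highest or lowest sample lay so far from the nearest other that the gap exceeded the 95% critical value of Dixon's test relative to the range. This held in 8 of 74 groups of 4 (10.8%), where chance alone flags about 1 in 20. In db/db 1, Hao1 was at 122 FPKM, far above the 51.7 to 60.1 of its group, and Pxmp4 at 33.1 against 41.9 to 43.3. Cat was at 1069 FPKM in db/db 4 against 1280.3 to 1313 in the others. Pex3 was at 15.3 FPKM in db/db 2 against 13.6 to 13.7. Among the lean samples, lean 3 was low for Ehhadh, at 48.0 FPKM against 70.5 to 74.9, and for Pex16, at 42.4 against 50.4 to 51.0. Acox3 was at 4.87 FPKM in lean 1 against 6.89 to 7.23, and Slc25a17 at 30.5 FPKM in lean 4 against 26.04 to 26.7.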

How the results depend on the processing

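Of the 23 called members, 16 (14 higher, 2 lower) kept their call under all 17 alternatives. Calls of Scp2, Decr2, Eci2, Abcd3, Slc25a17, Pex7 and Pex14 were lost under at least 1. Leaving out 1 sample gave 16 to 19 members higher and 2 lower, 5 to 7 Pex genes higher, and 10 to 13 other members higher. Replicate numbers did not pair the samples (correlations of same-numbered deviations -0.221, 0.0293, 0.110 and -0.00925), and with a replicate block 15 members were called higher and 2 lower. Median-ratio rescaling gave 16 higher. For PPAR alpha and its partners 1 gene was lower with rescaling and 1 with quantile normalization, and with voom 2 were higher and 2 lower. Leaving out 1 sample gave 0 to 1 lower. Among members not called, quantile normalization turned Phyh to 0.15 and Prdx5 to 0.036 (log2 fold changes, with the opposite sign as reported; the cause was not tested). Omitting single samples gave -0.157 to 0.0776 for Acox3, -0.147 to 0.0684 for Pxmp2 and -0.00876 to 0.169 for Pxmp4. Small changes of genes without a call may have been missed at 4 samples a group.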

Other observations

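Of the wider list of 35 tested peroxisomal genes, further genes called higher are given here, named after their values were seen. The calls are those on FPKM. Of the 13 genes of that list called higher, 10 were also called higher with voom. Acad11, an acyl-CoA dehydrogenase, averaged 161 ± 0.628 FPKM in db/db against a lean average of 95.4 ± 14.8 (SD, n = 4 each; limma adjusted p = 0.000974). Hsdl2, a dehydrogenase-like protein, rose from 27.5 ± 5.38 to 48.8 ± 4.93 FPKM and Idh1, which makes NADPH in the cytosol and the peroxisome, from 172 ± 10.5 to 244 ± 6.73 FPKM (limma adjusted p = 0.00237 and 0.00209). Proteases of the peroxisomal matrix were higher too, with Lonp2 at 160.0 ± 13.8 against 119 ± 13.4 FPKM and Tysnd1 at 8.56 ± 1.49 against 5.99 ± 0.808 (limma adjusted p = 0.0174 and 0.0406). The thioesterase Acot8, the NADH diphosphatase Nudt12 and the reductase Dhrs4 rose as well, with log2 fold changes of 0.67, 0.78 and 0.33. The ether lipid genes Agps and Gnpat and the fission genes Fis1, Dnm1l and Mff were not called (limma adjusted p from 0.384 to 0.749).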
